A study of Mus musculus with 4 samples.

Results

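RUNX1 ChIP-seq peaks at promoters were examined where the peak had been called in 1 of the 2 RUNX1 libraries only. The members were chosen by the peak calls themselves: peaks on chromosomes 1 to 19 that shared not 1 bp with any peak of the other list, with the summit within 1500 bp of a GENCODE transcription start (mm10) and a −log10 q of at least 5. The q is the false discovery rate that MACS2 gave the peak against its own library's background, so a larger −log10 q is a stronger call. This rule selected 2166 of the 40513 peaks in both lists, 1487 from the library labelled +DOX (called +DOX-only peaks here) and 679 from the library labelled -DOX (-DOX-only peaks). They were 15.4% of the 9659 promoter peaks of the first list and 7.99% of the 8498 promoter peaks of the second that reached the same −log10 q. The remaining 8172 and 7819 promoter peaks overlapped a peak of the other library and are called overlapping peaks.

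The cells were floating hematopoietic progenitors differentiated in culture. The paper's methods give 2 days for the differentiation, and its figure legend a later day. The cells came from mouse embryonic stem cells of the genotype "Tet-on dominant-negative FOS". Both groups carried this Doxycycline (DOX) inducible dnFOS transgene, a peptide that keeps AP-1 off the chromatin. By the sample labels, the +DOX group received Doxycycline and the -DOX group did not, and each was 1 library. After double crosslinking (DSG, then formaldehyde) RUNX1-bound chromatin was precipitated with an antibody. The name carried inside each RUNX1 peak list gave the opposite treatment to its sample label, and which is right could not be worked out. With the labels exchanged, each value below stays with its list and the words +DOX and -DOX change places. Another 2 libraries, labelled H3K27me3, had a title and a treatment that contradicted each other, and they were told apart only as titled untreated and titled DOX. A peak list holds no expression, so the labelled cell type could be checked only by the presence of peaks. Of 13 hematopoietic markers, 8 had a promoter peak in the +DOX list and 6 in the -DOX list, as did 1 and 1 of 5 endothelial markers and 1 and 0 of 5 pluripotency markers. Ptprc, Kit, Cd34, Gfi1b and Csf1r had none in either list.

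RUNX1 is the DNA-binding subunit of a core-binding factor and is required for blood cells to arise from hemogenic endothelium. It binds the letters TGTGGTT or close variants, commonly beside sites for ETS factors such as PU.1, for GATA factors, for C/EBP factors and for AP-1, the dimers of FOS and JUN proteins that dnFOS blocks. Promoters fall into CpG-rich ones, where SP/KLF, NFY, NRF1 and many ETS factors bind, and CpG-poor ones, which are more often used in particular cell types.

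The sequences below show the letters on which the motif comparison turns. They are 200-bp windows of the mm10 reference at peak summits, written 5′ to 3′ on the strand of the gene. They were the windows of the strongest protein-coding members, and of genes in the lists, that held no exon and at least 1 match, some of them left out. Capitals mark exact matches on either strand to the letters searched. Those of RUNX were TGTGGTT, those of PU.1 were GAGGAAGT, those of AP-1 were TGACTCA, those of C/EBP were TTGCNNAA (N is any base) and those of GATA were AGATAA. A match on the opposite strand appears as the reverse complement, as at Tbc1d8 for RUNX and at Zfp36 for AP-1. None of these 5 motifs contains another. Windows of +DOX-only peaks come first.
Acot3 (mm10 chr12:84052237-84052436, + strand, intron): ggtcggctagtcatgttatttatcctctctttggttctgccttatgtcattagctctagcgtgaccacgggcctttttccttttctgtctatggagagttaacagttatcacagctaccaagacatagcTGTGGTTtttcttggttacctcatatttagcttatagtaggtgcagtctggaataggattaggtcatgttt
Lgals3 (mm10 chr14:47374431-47374630, + strand, intron): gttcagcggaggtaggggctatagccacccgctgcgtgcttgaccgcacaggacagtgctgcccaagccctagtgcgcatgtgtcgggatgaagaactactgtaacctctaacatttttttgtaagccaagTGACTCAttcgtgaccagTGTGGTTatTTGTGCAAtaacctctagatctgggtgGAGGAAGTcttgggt
Borcs5 (mm10 chr6:134700963-134701162, + strand, intron): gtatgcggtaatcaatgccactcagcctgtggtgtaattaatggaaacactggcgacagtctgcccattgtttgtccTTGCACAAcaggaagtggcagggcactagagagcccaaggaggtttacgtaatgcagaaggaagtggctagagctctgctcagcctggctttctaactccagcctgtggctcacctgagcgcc
Zfp36 (mm10 chr7:28381134-28381333, - strand, intron): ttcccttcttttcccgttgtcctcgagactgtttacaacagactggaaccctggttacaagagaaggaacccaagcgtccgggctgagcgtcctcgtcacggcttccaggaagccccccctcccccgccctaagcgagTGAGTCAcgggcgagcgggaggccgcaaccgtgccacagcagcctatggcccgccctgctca
Acot3 encodes an acyl-CoA thioesterase, Lgals3 the lectin galectin-3 of macrophages, Borcs5 a subunit of a complex that positions lysosomes and Zfp36 an mRNA-destabilising protein. The Lgals3 window held all 4 of a RUNX, a PU.1, an AP-1 and a C/EBP match, at bases 150 to 156, 186 to 193, 132 to 138 and 159 to 166 counted from its first base. It lay in an intron 567 bp downstream of the nearest start, at a −log10 q of 21.4 and 8.73-fold enrichment. No -DOX peak was assigned to Lgals3.

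The windows of -DOX-only peaks follow, shown for their RUNX and GATA matches. The window at Arid1a, chosen in the same way but not printed, had a C/EBP match at bases 88 to 95 only.
Tbc1d8 (mm10 chr1:39393543-39393742, - strand, intron): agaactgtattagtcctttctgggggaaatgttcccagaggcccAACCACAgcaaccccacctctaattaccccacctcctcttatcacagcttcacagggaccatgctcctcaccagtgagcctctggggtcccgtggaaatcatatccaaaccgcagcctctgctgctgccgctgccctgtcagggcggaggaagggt
Col8a2 (mm10 chr4:126300932-126301131, + strand, intron): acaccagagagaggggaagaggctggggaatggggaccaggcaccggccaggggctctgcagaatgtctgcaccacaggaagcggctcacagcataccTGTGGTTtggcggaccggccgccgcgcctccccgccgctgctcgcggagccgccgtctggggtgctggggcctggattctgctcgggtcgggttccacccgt
Hsp90aa1 (mm10 chr12:110701515-110701714, - strand, intron): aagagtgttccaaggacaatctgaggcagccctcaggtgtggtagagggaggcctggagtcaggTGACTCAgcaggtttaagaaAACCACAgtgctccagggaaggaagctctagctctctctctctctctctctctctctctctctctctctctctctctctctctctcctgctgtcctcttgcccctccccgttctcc
Plxnc1 (mm10 chr10:94923596-94923795, - strand, intron): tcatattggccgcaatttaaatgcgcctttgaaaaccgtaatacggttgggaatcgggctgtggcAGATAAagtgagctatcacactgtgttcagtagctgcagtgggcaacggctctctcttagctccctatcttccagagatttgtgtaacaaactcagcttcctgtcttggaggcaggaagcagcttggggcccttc
Tfrc (mm10 chr16:32608092-32608291, + strand, intergenic): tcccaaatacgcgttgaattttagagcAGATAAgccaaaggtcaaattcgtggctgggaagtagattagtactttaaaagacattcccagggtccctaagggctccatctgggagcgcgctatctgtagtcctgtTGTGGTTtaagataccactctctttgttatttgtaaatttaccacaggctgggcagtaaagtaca
Tfrc, the transferrin receptor that brings iron into red cell precursors, had a GATA match at bases 28 to 33 and a RUNX match at bases 136 to 142. Hsp90aa1, a heat-shock chaperone, had the AP-1 letters at bases 65 to 71 and the RUNX letters at bases 85 to 91. Tbc1d8 (a Rab GTPase-activating domain protein), Col8a2 (a collagen of basement membranes) and Plxnc1 (a semaphorin receptor) had 1 match each.

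The peaks called in one library were weaker and narrower than the overlapping ones, and both properties belong to the calls that chose them, so they are given as description. The median −log10 q was 6.91 (range 5.0 to 54.0) for +DOX-only peaks and 6.37 (5.0 to 27.8) for -DOX-only peaks, against 12.8 and 11.4 for the overlapping peaks of the same lists. The median width was 248 and 227 bp against 485 and 453 bp. The median fold enrichment was 4.76 and 4.59 against 5.96 and 5.65. Of the 2166 members, 235 +DOX-only and 50 -DOX-only peaks reached a −log10 q of 10. At the threshold the values were continuous: the nearest +DOX peaks inside were at Uqcr11 (5.0), Nr3c1 (5.012) and Ppp1r12b (5.018) and the nearest outside at Arl5a, Nom1 and Ccdc124 (4.998 each). In the -DOX list Kif13a, Zfp54 and Fads1 (5.001 each) were inside, and Ccdc186, Dao and Ube3a (4.998 each) outside. The lists differed in length, with 21978 peaks for +DOX and 18535 for -DOX, and the numbers of reads behind them are unknown. When the longer list was shortened to the length of the other by −log10 q, 1487 +DOX-only and 993 -DOX-only peaks were left.

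Members lay farther from transcription starts than overlapping peaks. The median distance from summit to nearest start was 151 bp for +DOX-only and 180 bp for -DOX-only peaks, against 89.0 and 96.0 bp for overlapping peaks. Summits within 100 bp of a start made up 39.8% of +DOX-only peaks (95% Wilson interval 37.4 to 42.3) and 36.4% of -DOX-only peaks (32.8 to 40.1), against 53.7% and 51.2% of overlapping peaks. The differences were -13.9 percentage points (95% Newcombe interval -16.6 to -11.2) and -14.8 points (-18.5 to -11.0). All such intervals cover counting error over regions only and compare these libraries, not the conditions. Upstream of the start were 47.8% of +DOX-only and 41.8% of -DOX-only summits, a difference of 5.99 points (1.47 to 10.4). Introns held 33.8% and 32.7% of the summits and UTR exons 26.3% and 28.1%, while the overlapping peaks of the +DOX list had 24.1% in introns and 37.5% in UTR exons.

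**Figure D1:**
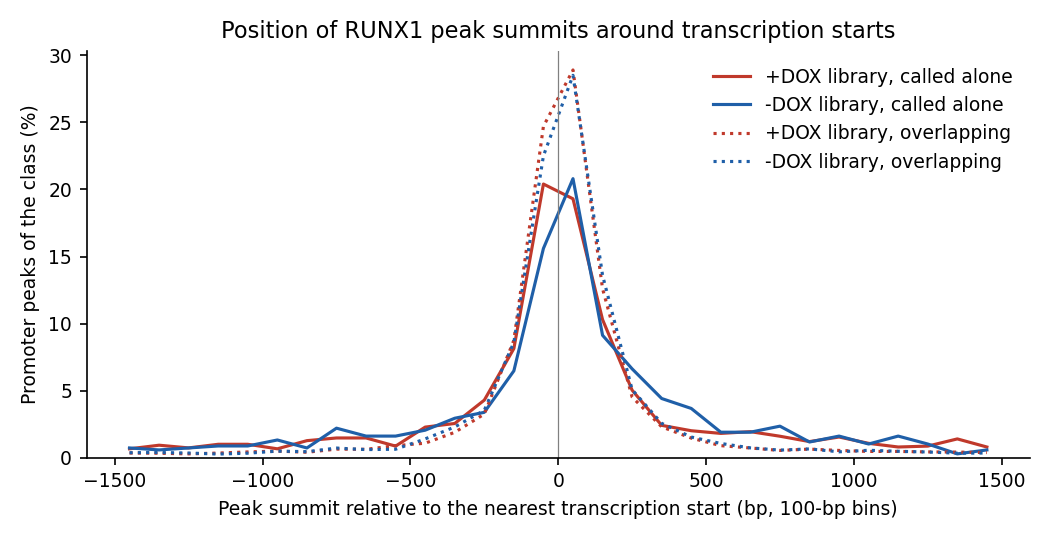
Percentage of promoter peaks per 100-bp bin (vertical axis) against the position of the summit relative to the nearest transcription start (horizontal axis, bp, downstream positive). Solid lines are +DOX-only (red) and -DOX-only (blue) peaks and dotted lines the overlapping peaks of the same lists. The dotted lines rise higher at the start, where 53.7% and 51.2% of overlapping summits were within 100 bp, and the solid lines lie higher beyond 500 bp.

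CpG-poor promoters were more frequent among the members. A 200-bp window with an observed to expected CpG ratio below 0.6 was found at 43.0% of +DOX-only peaks (40.5 to 45.5) and 41.4% of -DOX-only peaks (37.7 to 45.1), against 16.9% and 17.2% of overlapping peaks. The median GC content was 61.5% and 62.5% against 69.0% for the overlapping peaks of either list. Peaks of similar −log10 q differed in the same direction. Among overlapping peaks with −log10 q from 5 to under 10, CpG-poor windows made up 18.2% (+DOX, 16.9 to 19.7) and 18.5% (-DOX, 17.2 to 19.9), and among members in the same range 41.4% (38.7 to 44.1) and 41.7% (37.9 to 45.5). In CpG-poor windows the median distance of members from a start was 374 bp (+DOX) and 425 bp (-DOX), and in CpG-rich windows 96.0 and 108 bp. For overlapping peaks it was 293 and 292 bp in CpG-poor windows and 76.0 and 82.0 bp in CpG-rich ones.

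Any of the 5 motifs RUNX, PU.1, AP-1, C/EBP and GATA was present at 26.2% of +DOX-only and 20.3% of -DOX-only peaks. Between the members of the 2 libraries, 4 of the 13 motifs searched differed over all windows with an interval that excluded 0. The PU.1 letters were present at 5.72% of +DOX-only peaks (85 of 1487) and 1.47% of -DOX-only peaks (10 of 679), a difference of 4.24 points (2.62 to 5.70). AP-1 letters were present at 4.84% and 2.06% (2.78 points, 1.10 to 4.25) and C/EBP letters at 7.33% and 3.98% (3.35 points, 1.22 to 5.25). GATA letters went the other way, with 5.11% of +DOX-only and 9.28% of -DOX-only peaks, a difference of -4.17 points (-6.79 to -1.85). RUNX letters were at 9.15% and 7.51%, and the interval of that difference, from -0.978 to 3.99 points, included 0. The paper reports RUNX1, AP-1, PU.1 and C/EBP motifs at RUNX1 sites lost with dnFOS, and RUNX, GATA and ETS motifs at gained ones. Under the sample labels, the 4 differences run opposite to that report. Under the names inside the lists they run the same way. The paper describes distal sites chosen by tag counts, so these promoter peaks do not settle the labels. For comparison, the 200 bp centred on all 90262 starts of protein-coding transcripts held RUNX letters at 3.03%, PU.1 at 1.97%, AP-1 at 2.67%, C/EBP at 5.62% and GATA at 5.68%. Windows shifted by 2000 bp from the members were mostly CpG-poor (2822 of 2974 for +DOX and 1287 of 1358 for -DOX). They held RUNX letters at 5.35% and 4.86%, PU.1 at 1.34% and 1.91%, and AP-1 at 3.09% each. C/EBP was at 7.77% and 7.51% and GATA at 10.6% and 9.20%. Over all windows, C/EBP at +DOX-only and GATA at -DOX-only summits were thus close to the shifted shares.

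The differences were larger in CpG-poor windows. There the PU.1 letters were at 10.5% of 639 +DOX-only windows and 3.20% of 281 -DOX-only windows (7.28 points, 3.78 to 10.3). AP-1 was at 9.39% against 2.85% (6.54 points, 3.19 to 9.42), C/EBP at 11.7% against 3.91% (7.82 points, 4.09 to 11.0) and GATA at 64 of 639 against 50 of 281, or 17.8% (-7.78 points, -13.1 to -3.00). The +DOX-only windows were above the CpG-poor overlapping windows of their own list in PU.1 (5.52%, difference 4.97 points, 2.44 to 7.80), AP-1 (6.10%, 3.29 points, 0.833 to 6.05) and C/EBP (7.41%, 4.33 points, 1.61 to 7.34). The -DOX-only windows were below those of theirs in C/EBP (7.23%, -3.32 points, -5.61 to -0.101), while for PU.1 and AP-1 the intervals included 0. For GATA, the +DOX-only windows were below their overlapping windows (15.5%, -5.45 points, -8.35 to -2.31), and the -DOX-only windows differed from theirs (18.0%) by -0.253 points (-4.82 to 5.02). RUNX letters stood at 18.5% and 16.0% of CpG-poor members and at 18.7% and 19.5% of CpG-poor overlapping peaks, against 4.29% of CpG-poor starts of protein-coding transcripts. In CpG-rich windows the differences between the libraries were -0.0924 points for AP-1 (-1.94 to 1.23) and -0.0107 points for C/EBP (-2.67 to 2.16), and those for PU.1 (1.87 points, 0.477 to 3.10) and GATA (-1.85 points, -4.17 to -0.148) were smaller than in CpG-poor ones. The difference between the CpG-poor and the CpG-rich windows was not itself tested.

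**Figure D2:**
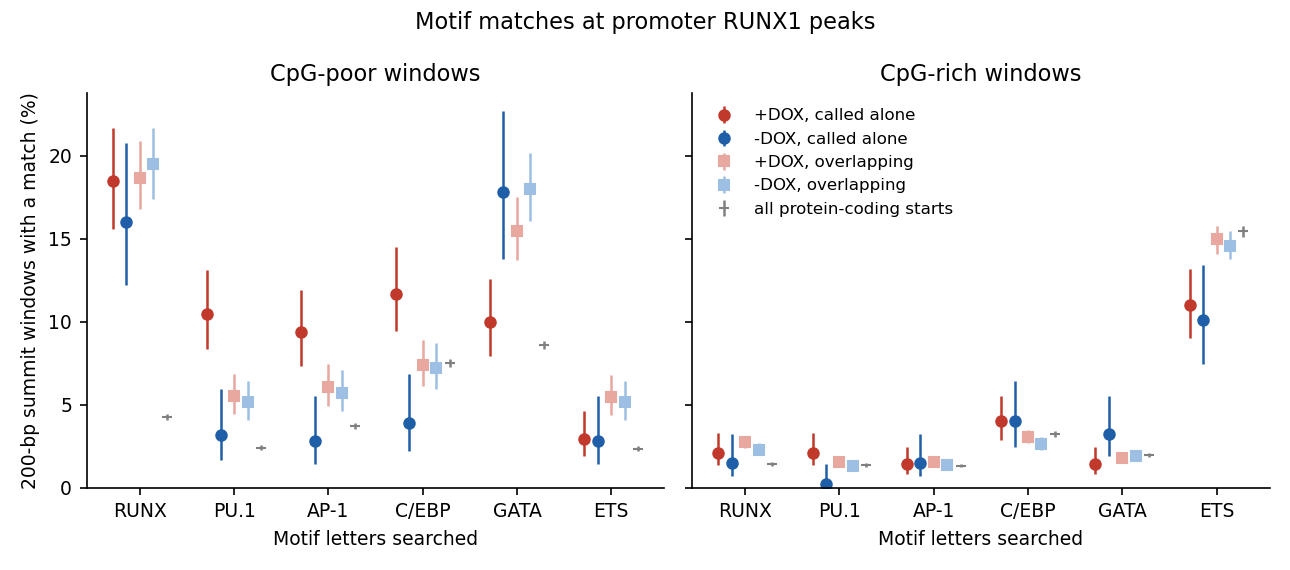
Percentage of 200-bp summit windows with a match to each motif (vertical axis) in CpG-poor (left) and CpG-rich (right) windows. Circles are +DOX-only (red) and -DOX-only (blue) peaks, squares the overlapping peaks of the same lists, grey dashes the starts of protein-coding transcripts, and bars 95% Wilson intervals. On the left, red circles lie above blue ones for PU.1, AP-1 and C/EBP and below for GATA (64 of 639 against 50 of 281 windows).

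Members of both libraries held fewer ETS and SP/KLF letters than overlapping peaks. The ETS letters CCGGAAG were at 7.53% of +DOX-only and 7.07% of -DOX-only peaks, against 13.4% and 13.0% of overlapping peaks, differences of -5.82 points (-7.27 to -4.20) and -5.92 points (-7.78 to -3.63). Within CpG-rich windows the ETS shares were 11.0% and 10.1% against 15.0% and 14.6%. The SP/KLF letters GGGCGG were at 39.8% and 38.4% of members against 58.1% and 57.2% of overlapping peaks. The gaps were smaller within each CpG class. In CpG-rich windows the SP/KLF shares were 59.1% and 56.0% against 65.7% and 64.8%, and in CpG-poor windows 14.2% and 13.5% against 21.1% and 20.4%. Over all starts of protein-coding transcripts the ETS share was 8.16% and the SP/KLF share 32.8%. The NFY letters CCAAT went the other way in the +DOX list, at 18.6% of +DOX-only and 15.3% of overlapping peaks (3.32 points, 1.26 to 5.52), while the -DOX list had 16.2% and 14.6% (1.59 points, -1.11 to 4.65). Their share over all starts of protein-coding transcripts was 23.6%. The NRF1 letters GCATGCGC were at 1.61% of +DOX-only and 2.52% of overlapping peaks (-0.907 points, -1.55 to -0.0678), and at 1.91% and 2.19% in the -DOX list (-0.272 points, -1.14 to 1.09). In CpG-poor windows, RUNX and PU.1 letters stood together in 13 of 639 +DOX-only and 1 of 281 -DOX-only windows, RUNX and C/EBP letters in 18 and 0, and RUNX and GATA letters in 13 and 11. Pairs were not counted in overlapping peaks. Whether they were more frequent than the shares of the single motifs would give was not tested.

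Many of the genes also had a peak of the other library. Of the +DOX-only peaks, 689 (46.3%, 43.8 to 48.9) lay at a gene to which at least 1 -DOX peak was assigned by its nearest start, and of the -DOX-only peaks 367 (54.1%, 50.3 to 57.8) lay at a gene with a +DOX peak. For 267 and 168 members (18.0% and 24.7%) the nearest of those peaks was within 500 bp. For 242 and 115 (16.3% and 16.9%) all were farther away but at least 1 of them was at a start of the same gene. For 180 and 84 (12.1% and 12.4%) all of them lay elsewhere. No peak of the other library was assigned to the gene of 798 +DOX-only peaks (53.7%) and 312 -DOX-only peaks (45.9%). The -DOX list, against which the +DOX-only peaks were searched, was the shorter one, and with lists of the same length the shares were 46.3% and 44.5%. Overlapping peaks had a further peak of the other library at their gene in 33.5% (+DOX) and 38.3% (-DOX). In 546 +DOX-only peaks (36.7%) and 260 -DOX-only peaks (38.3%), the same list also held an overlapping peak at that gene.

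**Figure D3:**
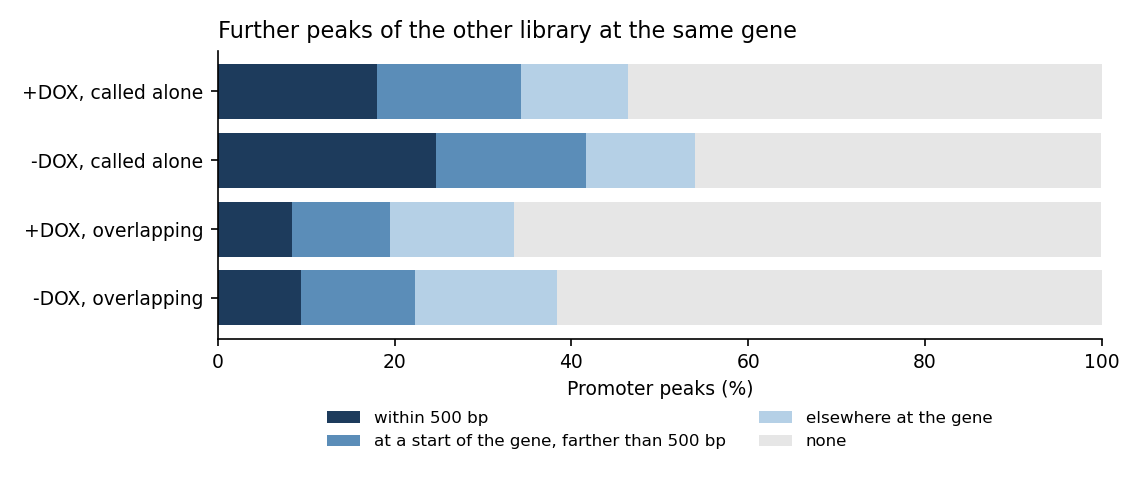
Percentage of promoter peaks (horizontal axis) by where the other library had a further, non-overlapping peak at the same gene. The bars are +DOX-only, -DOX-only and the overlapping peaks of both lists. The share without such a peak (grey) was 53.7% and 45.9% for the members and 66.5% and 61.7% for the overlapping peaks.

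Counted by gene, the members were nearest to 1440 genes (+DOX) and 668 genes (-DOX), of which 45 and 10 had more than 1 member in the same library. Among 20807 protein-coding genes on these chromosomes, 1209 (5.81%) had a +DOX-only peak and 558 (2.68%) a -DOX-only peak. Genes with a member in each library numbered 65. In these the summits of the 2 nearest members lay a median of 567 bp apart (126 to 1182696 bp), the gap between them was at most 500 bp in 40, and the same start was nearest in 27. Stam, an endosomal sorting adaptor, had members 1 bp apart, and Shc1, an adaptor of receptor tyrosine kinases, had summits 126 bp apart at −log10 q of 6.11 (+DOX) and 6.01 (-DOX). In contrast, 12 genes had members over 10000 bp apart at different starts, among them Pde4d (a cAMP phosphodiesterase, 1182696 bp), Ppp1r9a (207115 bp) and Pik3cd (a leukocyte PI3-kinase subunit, 36295 bp). Tcf7l1 and Tcf7l2, both transcription factors of the WNT pathway, each had a member in each library, with summits 268 and 1512 bp apart.

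The strongest +DOX-only peaks lay mostly at CpG-poor starts, in 11 of the top 12. The highest was at Ppcdc (coenzyme A synthesis), with a −log10 q of 54.0 and 13.0-fold enrichment 28 bp upstream of a start, and a -DOX peak of 6.44 began 168 bp away. Grn, the growth factor progranulin of macrophages, followed with 41.0, and a second +DOX-only peak of 5.08 had its summit 375 bp downstream of the first start of the gene. No -DOX peak was assigned to Grn. Sema4d, a semaphorin of lymphocytes, had 39.2 at one start while a peak of 56.6 in the -DOX list lay 2776 bp away. Rgs18, a G-protein regulator of platelets, had 33.3, and no -DOX peak was assigned to it. The others were Calm4 (31.1), Kcnn1 (23.0), Cdk14 (22.8), Acot3 (21.9), Ppp6r1 (21.6), Lgals3 (21.4), Tuft1 (20.8) and Gm42973 (20.7). Of the 12 genes, Grn, Rgs18, Acot3, Lgals3, Tuft1 and Gm42973 had no -DOX peak assigned by nearest start, although -DOX peaks assigned to neighbouring genes lay 4846 bp from the stronger Grn peak and 7010 bp from the Tuft1 peak.

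The strongest -DOX-only peaks reached lower values. The highest, 27.8, was at the small RNA gene Gm22854, 48 bp upstream of its start, and lay under peaks of both H3K27me3 lists. Its 200-bp window was 100% soft-masked repeat with 6.50% GC, so it is not among the members when repeats are left out. Cmss1 (22.2), Zfp445 (a zinc finger protein that helps keep genomic imprints, 17.6) and Supt4a (a subunit of the elongation factor DSIF, 17.2) followed. A +DOX peak lay 1614 bp from the Cmss1 peak and 274 bp from the Supt4a peak, and none was assigned to Zfp445. Gm498 and Tesk2 (15 each), Tbc1d8 (14.5), Gm15458 (14.4), Chgb (chromogranin B of secretory granules, 14.2), Gm37997 (14.0), 2510002D24Rik (13.7) and Sptlc2 (a subunit of serine palmitoyltransferase, 13.6) made up the rest. RUNX letters were in 4 of these 12 windows, at Gm498, Tbc1d8, Gm15458 and Gm37997, and GATA letters beside them at Gm498 and Gm37997. Over all -DOX-only peaks the shares were 7.51% for RUNX and 9.28% for GATA. Among the 12 strongest +DOX-only peaks, RUNX letters were at Acot3 and Lgals3 and GATA letters at Rgs18 and Gm42973.

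Gene lists of hematopoietic and other programs are described by how many of their genes had a member, beside the 5.81% and 2.68% of all protein-coding genes. Of all 20807 protein-coding genes, 34.8% had an overlapping promoter peak and 11072 had no promoter peak in either list. Shares among genes with a promoter peak of any kind were not compared. Of 18 annotated AP-1 family genes, 3 had a +DOX-only peak (16.7%) and 0 a -DOX-only peak. An overlapping promoter peak was at 14 of the 18 (77.8%), and 1 had no promoter peak in either list. The 3 were Mafg (−log10 q 6.39), Junb (6.34) and Atf3 (6.07). At Junb, a JUN protein, both libraries had a strong peak with its summit 2246 and 2174 bp from the gene's first start (38.2 and 36.2), and the member's summit lay at 1042 bp. At Mafg a -DOX peak of 28.9 lay 102 bp from the member, and at Atf3 no -DOX peak was assigned. Of 29 immediate early genes, which respond within minutes to signals, 6 had a +DOX-only peak (20.7%): Btg1 (14.2), Nr4a1 (10.6), Zfp36 (9.85), Ppp1r15a (6.06), Sgk1 (5.84) and Ier5 (5.74). The -DOX list had 1 (3.45%), at Ier5 (6.08), whose 2 members lay 148 bp apart. An overlapping promoter peak was at 21 of the 29 (72.4%, beside 34.8% of all protein-coding genes), and 3 had no promoter peak in either list. Nr4a1, an orphan nuclear receptor, had a -DOX peak of 39.0 at 7271 bp from the member, Ppp1r15a one of 42.7 at 971 bp and Btg1 one of 4.64 at 222 bp. Sgk1 had none.

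Among 39 annotated hematopoietic transcription factors, 6 had a +DOX-only peak (15.4%) and 1 a -DOX-only peak (2.56%). An overlapping promoter peak was at 26 of them (66.7%, beside 34.8% of all protein-coding genes). The +DOX-only peaks were at Zfpm1 (the GATA1 partner FOG1, 8.24), Lmo2 (6.47), Etv6 (6.08), Bcl11a (6.02), Spi1 (5.63) and Runx2 (5.57), and the -DOX-only peak was at Id1 (7.36). Spi1 encodes PU.1. The +DOX library had peaks with summits at -3528 bp (44.3) and 656 bp (102) from its first start, the -DOX library overlapped both (37.9 and 64.0), and the member lay at an alternative start 14644 bp downstream. At Lmo2, Etv6, Zfpm1 and Runx2 a -DOX peak lay 583, 120, 21897 and 93517 bp from the member, and none was assigned to Bcl11a.

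Of 41 myeloid granule and phagocyte genes, 4 had a +DOX-only peak (9.76%, beside 5.81% of all protein-coding genes) and 0 a -DOX-only peak (beside 2.68%). The 4 were Grn, Plek (pleckstrin, 6.99), Fcgr1 (the high-affinity IgG receptor, 5.53) and Lyn (a SRC-family kinase, 5.29). At Plek and Lyn a -DOX peak lay 3331 and 437 bp away. Of 29 cytokine and growth factor receptors, 4 had a +DOX-only peak (13.8%) and 0 a -DOX-only peak. The 4 were Ccr2 (12), Flt3 (5.69), Ifngr2 (5.46) and Ifnar1 (5.24). The Flt3 peak lay under peaks of both H3K27me3 lists and had no -DOX peak at its gene, and a -DOX peak lay 4857, 534 and 166 bp from the Ccr2, Ifngr2 and Ifnar1 peaks. An overlapping promoter peak was at 12 of the 41 myeloid granule and phagocyte genes (29.3%) and 12 of the 29 receptors (41.4%). The differences between the libraries in these counts of members were not tested.

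Erythroid genes had 3 -DOX-only peaks and 1 +DOX-only peak among 26 annotated genes (11.5% and 3.85%). Among the -DOX-only peaks were those at Fech (ferrochelatase, the last enzyme of heme synthesis, 6.66) and Tfrc (6.25), and both held GATA letters in their windows. The +DOX-only peak was at Alad (11.2), an earlier enzyme of the same path. At Tfrc a +DOX peak of 18.0 began 161 bp from the member, and at Fech one of 24.3 lay 2124 bp away. At Alad a -DOX peak of 17.5 lay 2854 bp from the member. An overlapping promoter peak was at 14 of the 26 erythroid genes (53.8%). Of 20 megakaryocyte and platelet genes, Itgb3 (7.19) and Zfpm1 had a +DOX-only peak and Itga2b (CD41, 9.11) a -DOX-only peak. The Itga2b member lay 8339 bp into the gene at an alternative start and held RUNX letters, while both libraries had a peak at the first start (82.0 and 67.3). An overlapping promoter peak was at 7 of the 20 megakaryocyte and platelet genes (35.0%).

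Of 40 cell cycle regulators, 2 (5%) had a +DOX-only peak (Ccna2 at 7.92 and Mcm3 at 6.39) and 4 (10%) a -DOX-only peak, beside 5.81% and 2.68% of all protein-coding genes (Mcm5 at 10.3, Ccnd3 at 5.88, Cdk4 at 5.72 and Ccnd2 at 5.02). Of 31 polycomb and chromatin regulators, Smarcb1 (5.79) had a +DOX-only peak (3.23%), and Tet3 (9.08), Tet1 (5.51) and Arid1a (5.16) had a -DOX-only peak (9.68%). Of 27 endothelial genes, Notch1 (7.59) had a -DOX-only peak (3.70%) and 0 had a +DOX-only peak. Of 12 pluripotency genes, 0 had a member. Overlapping promoter peaks were at 27 of the 40 cell cycle regulators (67.5%) and 25 of the 31 polycomb and chromatin regulators (80.6%). They were at 8 of the 27 endothelial genes (29.6%) and 1 of the 12 pluripotency genes (8.33%).

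**Figure D4:**
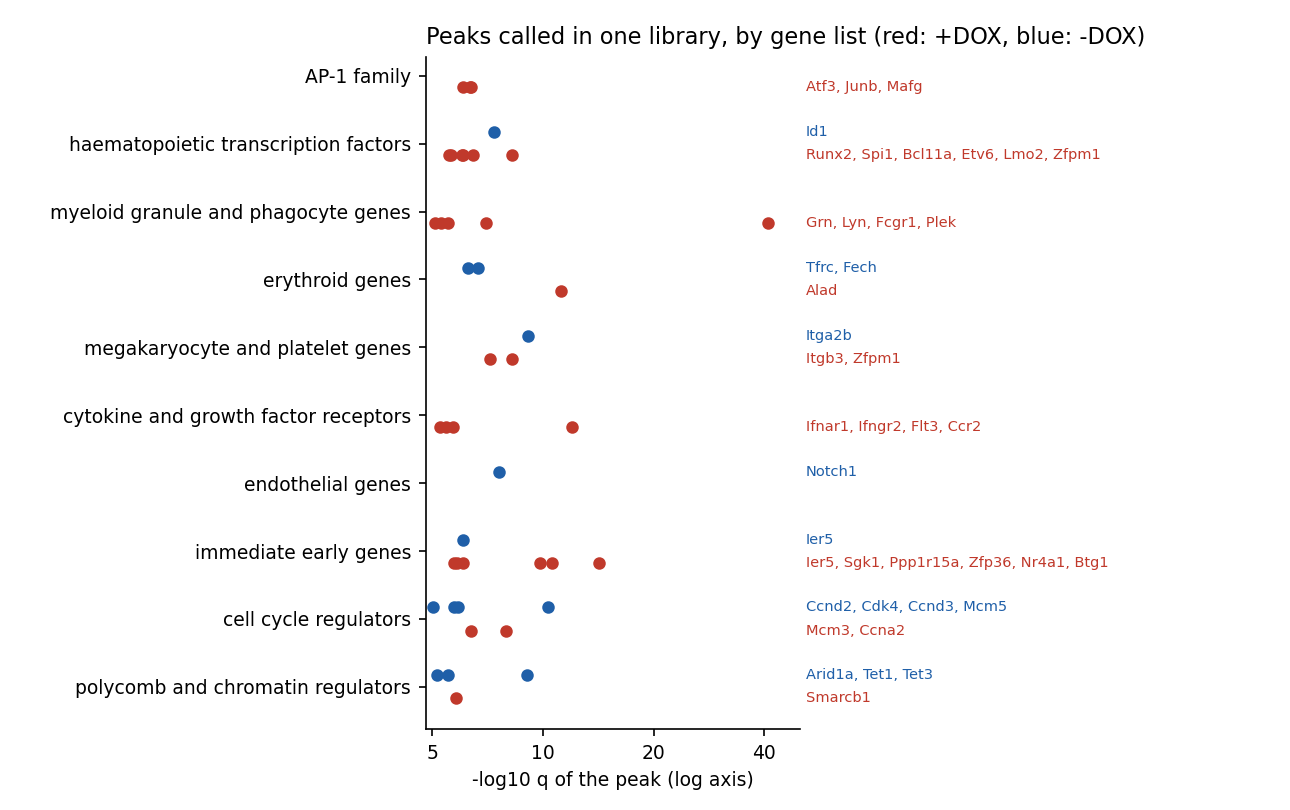
The −log10 q (horizontal axis, log scale) of the members named at genes of 10 lists, red for +DOX-only and blue for -DOX-only peaks, with the genes named at the right in order of rising value. All but 1 of the points lie below 15, and the exception is Grn at 41.0.

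**Figure D5:**
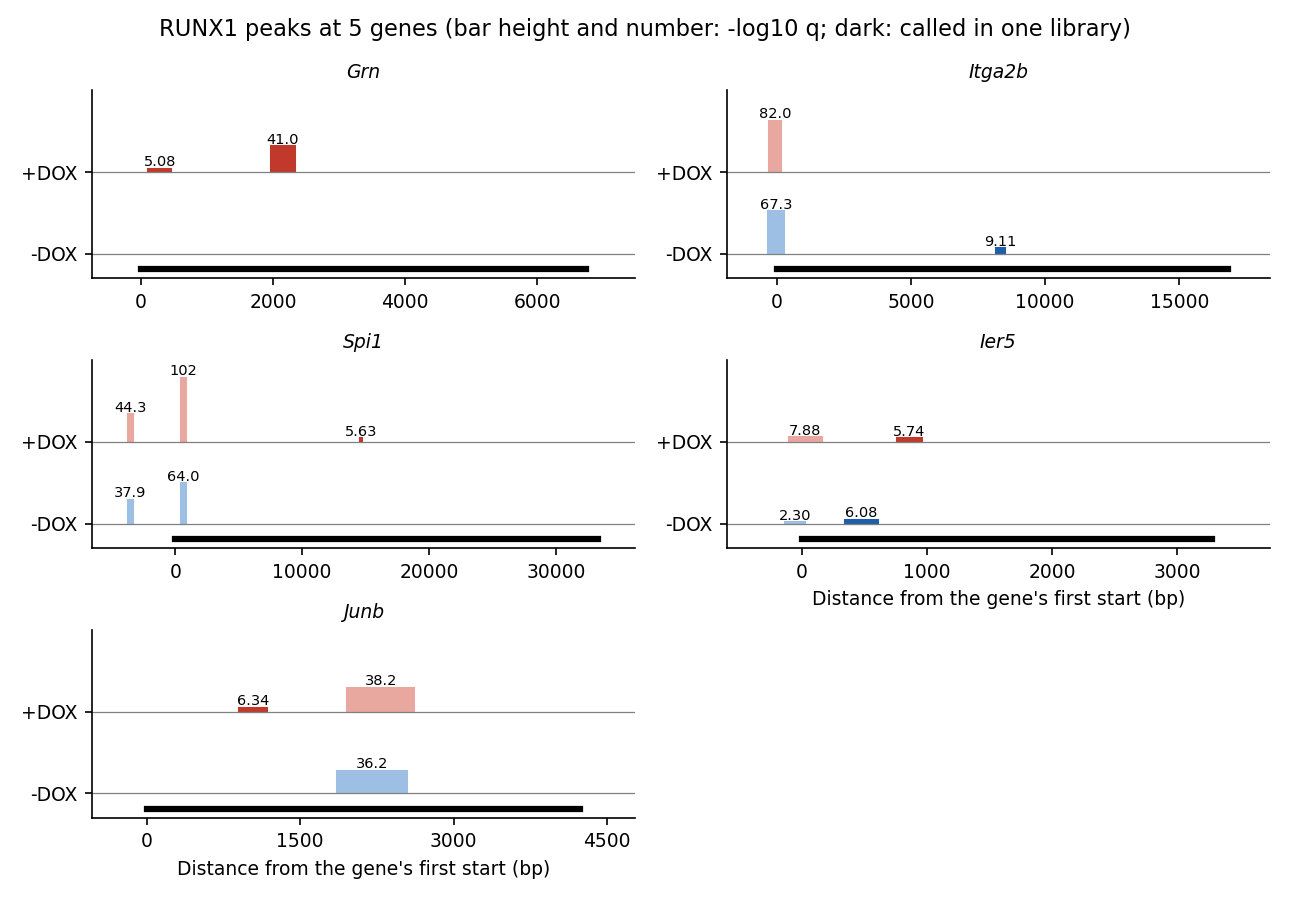
RUNX1 peaks at 5 genes by distance from the gene's first start (horizontal axis, bp, in the direction of transcription), with a row for each library. Bar width is the peak, bar height and number its −log10 q, dark bars are members, pale bars overlap a peak of the other library, and the black line is the gene. At Spi1, Itga2b and Junb the member is the smaller peak of a library that also has a shared one, and Grn has peaks in the +DOX row only.

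H3K27me3, the histone mark that Polycomb repressive complex 2 places at silenced genes, lay over a small share of the members. Peaks of the library titled untreated overlapped 6.52% of +DOX-only and 8.25% of -DOX-only peaks, and peaks of the library titled DOX overlapped 5.92% and 8.84%. Both lists overlapped 68 +DOX-only peaks (4.57%, 3.62 to 5.76) and 36 -DOX-only peaks (5.30%, 3.85 to 7.25), against 3.46% and 3.41% of overlapping RUNX1 peaks, differences of 1.11 points (0.0719 to 2.35) and 1.89 points (0.378 to 3.87). At a −log10 q from 5 to under 10, the shares were 4.47% of +DOX-only peaks (3.46 to 5.76) and 3.86% of overlapping +DOX peaks (3.22 to 4.63). In the -DOX list they were 5.25% (3.76 to 7.28) and 2.93% (2.41 to 3.57). Over all strengths, the differences between members and overlapping peaks had opposite signs in CpG-rich and CpG-poor windows. In CpG-rich windows, members were more often under both H3K27me3 lists than overlapping peaks, with 7.08% and 7.54% against 3.27% and 3.03% (3.81 points, 2.2 to 5.78, and 4.51 points, 2.26 to 7.56). In CpG-poor windows they were less often so, with 1.25% and 2.14% against 4.43% and 5.29% (-3.18 points, -4.54 to -1.64, and -3.16 points, -4.92 to -0.489). The protocol deposited with the H3K27me3 libraries names the RUNX1 antibody, so which antibody was used could not be told from the labels alone.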

How the data were processed

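The deposited RUNX1 and H3K27me3 peak lists were used. Per the paper's methods, RUNX1 reads were trimmed (Trimmomatic), mapped to mm10 (Bowtie2) and freed of duplicates (Picard), and MACS2 called each library's peaks at q-values up to 0.05. The submitters' processing notes name Bowtie2 2.2.9 and MACS2 2.1.1. The authors deposited per peak its fold enrichment (a ratio to the library's own local background) and −log10 transforms of the p-value and q-value. No control library is named in the sources used here, how the H3K27me3 libraries were processed beyond these notes is not given there, and read depth is unknown. Peaks were not compared with blacklisted regions.

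Members were selected as peaks without 1 bp of overlap with the other list, and were assigned to the nearest GENCODE vM21 start of any transcript. Motifs of 13 factors were searched as exact letters, in either orientation, within 200 bp windows centred on summits. A window was CpG-rich at an observed to expected ratio of 0.6 or more. Members, gene lists and motifs were chosen with earlier results of these data known. The genes named were those of the 12 members of highest −log10 q per library, of 11 gene lists, with a member in each library, and next to the threshold. The genes of the printed windows and a few genes with a member in each library were picked as examples, and some members are not reported here. Shares have Wilson and differences Newcombe intervals of 95%, which cover counting error over regions only. With 1 library per condition no test between conditions and no p-value was possible. The software was Python 3.11.15, numpy 2.4.6, pandas 2.3.3, scipy 1.17.1 and matplotlib 3.10.9, and the code was tested on simulated data. Alternatives changed the thresholds on −log10 q, distance and overlap, the length of the lists, the transcripts, chromosomes and repeats included, the motif window, the way a peak was tied to a gene, and the labels of the libraries.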

Additional observations from a re-analysis of the deposited data

How the results depend on the processing

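The number of members moved with the threshold. With −log10 q from 3 up it was 2620 (+DOX) and 1328 (-DOX), from 10 up 235 and 50, and 2480 and 1684 when only a summit of the other list within 200 bp counted as shared. Under the other 9 alternatives it was within 1.5 times of the 1487 and 679 reported, and +DOX-only peaks were the more numerous under every alternative except the exchange of the libraries, which gives 679 and 1487.

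The share of members whose gene had a peak of the other library was 66.8% (+DOX) and 72.8% (-DOX) when any peak from 10 kb before to 10 kb after the gene counted, 37.8% and 44.8% when only peaks with −log10 q of at least 5 did, and 46.3% and 54.1% change places with the libraries exchanged. Members with −log10 q of at least 10 gave 43.8% and 38.0%. Of 2 alternatives chosen after seeing the data, lists of the same length gave 46.3% and 44.5%, and leaving out peaks within 500 bp gave 34.2% and 39.0%. The order of the libraries was turned by the stricter members and by the lists of the same length.

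The motif differences, +DOX-only minus -DOX-only, were also taken over members with −log10 q of at least 10. They were 11.1 points for PU.1 (3.16 to 15.7), 9.79 for C/EBP (1.98 to 14.3) and -10.5 for GATA (-23.2 to -1.96). The intervals for RUNX (-2.09, -14.8 to 6.42) and AP-1 (3.23, -6.60 to 8.21) included 0. Only 50 -DOX-only windows were that strong, with PU.1 and C/EBP letters in 0 of them and GATA letters in 8. CpG-rich windows gave -0.0107 for C/EBP, -0.0924 for AP-1 and 1.87 for PU.1, and CpG-poor windows -7.78 for GATA, 7.82 for C/EBP, 6.54 for AP-1 and 7.28 for PU.1. Exchanging the libraries turns every sign, to 4.17 for GATA, -4.24 for PU.1, -3.35 for C/EBP, -2.78 for AP-1 and -1.63 for RUNX. Windows of 100 or 400 bp, repeats left out and, chosen after seeing the data, members with no peak of the other list within 500 bp kept each difference within its reported interval.

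No paired analysis was possible because each condition had 1 library, and leaving out 1 library would leave a condition without data. The depth behind the peak lists is unknown, and it limits which sites each list can hold.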

Other observations

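Members were also counted on the sex chromosomes, which the selection left out. The X held 36 further +DOX-only and 25 -DOX-only promoter peaks of the same strength, and the Y held 0 of either. Across the autosomes the +DOX-only share of promoter peaks ranged from 13.0% on chromosome 14 to 18.0% on chromosome 12, and the -DOX-only share from 4.75% on chromosome 13 to 10.8% on chromosome 6.

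Promoters shared by divergent genes were less frequent among the members. A protein-coding start in the opposite direction within 1000 bp was found at 8.07% of +DOX-only and 8.98% of -DOX-only peaks, against 12.7% and 12.6% of overlapping peaks, differences of -4.60 points (-6.07 to -2.94) and -3.63 points (-5.70 to -1.13). Soft-masked repeats made up at least 50% of the window in 1.88% and 3.53% of members and in 1.46% and 1.60% of overlapping peaks. Pseudogenes were the nearest gene of 2.62% and 3.09% of members, against 1.36% and 1.32% of overlapping peaks (1.26 points, 0.514 to 2.23, and 1.78 points, 0.679 to 3.38).

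Within members of a −log10 q of at least 10, the PU.1 letters were at 11.1% of 235 +DOX-only windows, the AP-1 letters at 7.23% and the C/EBP letters at 9.79%, while among overlapping +DOX peaks of the same range they were at 2.32%, 2.45% and 3.76% of 5299. CpG-poor windows were 51.5% of these members and 16.1% of these overlapping peaks, and their part in the motif shares at this strength was not tested.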
